A study of Homo sapiens with 2 samples.

Results

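Amino acid transporters are membrane carriers that move amino acids across the plasma membrane, the lysosomal membrane and the inner mitochondrial membrane. The 33 genes described here belong to the SLC1, SLC3, SLC6, SLC7, SLC16, SLC25, SLC36, SLC38 and SLC43 families and were chosen by name, not by their values. All probe sets of the array whose platform annotation names exactly 1 of these genes were taken. This gave 85 probe sets, with at least 1 for each of the 33 genes, out of 54675 probe sets and 19775 named genes on the array.

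The cells were MDA-MB-231, an established human line from a triple-negative breast tumour, which lacks the oestrogen and progesterone receptors and amplified ERBB2. One array was made from cells given siRNA against KMO for 48 h, and the other from cells given a control siRNA for the same time, both with DharmaFECT as the transfection reagent. The medium of both cultures held serum, added glutamine and non-essential amino acids. The array names in the labels carry the strings shK421 for the KMO array and shLUC for the control array, strings typical of short hairpins, so it is not settled which construct was used. KMO encodes kynurenine 3-monooxygenase, which hydroxylates kynurenine, a product of tryptophan breakdown. By its title the study concerns pluripotency genes and beta-catenin, and the carriers were read from the same arrays. With 1 array per condition there is no replicate, and none of the differences below has a test or a p-value. Each array averages over a culture, so less RNA in every cell and fewer cells with the RNA cannot be told apart.

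Most amino acids enter cells on a few shared carriers. Sodium-coupled carriers of the SLC1 and SLC38 families concentrate glutamine, alanine and serine in the cell. Some exchangers of the SLC7 family then trade these for leucine, tryptophan or arginine. Several SLC7 carriers work only as a light chain bound to the glycoprotein encoded by SLC3A2. The pair of SLC3A2 and SLC7A5 also carries kynurenine, and the pair of SLC3A2 and SLC7A11 imports cystine for glutathione in exchange for glutamate, a route on which many triple-negative breast cancer lines depend. Several carrier genes are transcribed more strongly when amino acids run short, through the transcription factor ATF4.

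The values are log2 levels after robust multi-array averaging (RMA), so a difference of 1 is 2-fold, and each difference below is the KMO siRNA level minus the control siRNA level. A level of this kind has no true zero, and weak probe sets sit at a background level. Each gene was read from the probe set whose mean over both arrays was highest, and it was called measured where that mean was at least 6. By this rule 25 of the 33 transporters were measured. The level closest above the minimum was that of SLC7A8 (5.95 in the KMO siRNA array and 6.05 in the control array), and the closest below was that of SLC43A2 (5.26 and 5.63 in the same order). Levels of different genes come from different probes and are not compared with each other.

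The cells and the knockdown were looked at first. Both arrays had high levels of VIM (12.96 with KMO siRNA and 12.90 with control siRNA), CD44 and KRT18. Genes of epithelial cells, looked up after their values were seen, were also clearly present, although this line is usually described as mesenchymal with little E-cadherin. E-cadherin (CDH1) stood at 8.62 with KMO siRNA and 10.54 with control siRNA, and CD24 at 9.45 with KMO siRNA and 10.46 with control siRNA. The claudins CLDN7 and CLDN4 differed by -1.11 and -0.54. The part of this in the transporter values was not tested. ESR1 and PGR lay under the minimum, and ERBB2 stood at 7.37 with KMO siRNA and 7.44 with control siRNA. The markers of blood cells, endothelium and liver that were analysed (PTPRC, CD3E, PECAM1, VWF, ALB and APOA1) all lay under 6. KMO had 3 probe sets, at 2.92, 2.51 and 2.35 with KMO siRNA and at 2.95, 2.37 and 2.11 with control siRNA, which is background, so the array gives no check of the knockdown. The median level of all probe sets was 4.43 with KMO siRNA and 4.44 with control siRNA.

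As a group the transporters did not move one way. Of the 25 measured, 10 were higher (40%, beside 54.8% of all 8997 measured genes) and 15 lower with KMO siRNA. Their median difference was -0.05, beside a median of 0.04 over all measured genes. The lower and upper quartiles of the transporters were -0.22 and 0.30, and those of all measured genes -0.17 and 0.25. At a fold of at least 1.5, 1 transporter was higher (SLC36A1), which is 4% of those measured beside 5.19% of all measured genes. At the same fold 2 were lower (SLC1A1 and SLC7A11), which is 8% beside 5.41% of all measured genes. No transporter was higher by 2-fold, where 0.856% of all measured genes were. Only SLC1A1 was lower by 2-fold, where 1.39% of all measured genes were, and the count was 0 once levels under 6 were taken as 6. The shares past these folds are near the background and are no result about the transporters as a group. The share of each direction was not tested. The individual carriers follow by their roles.

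**Figure D1:**
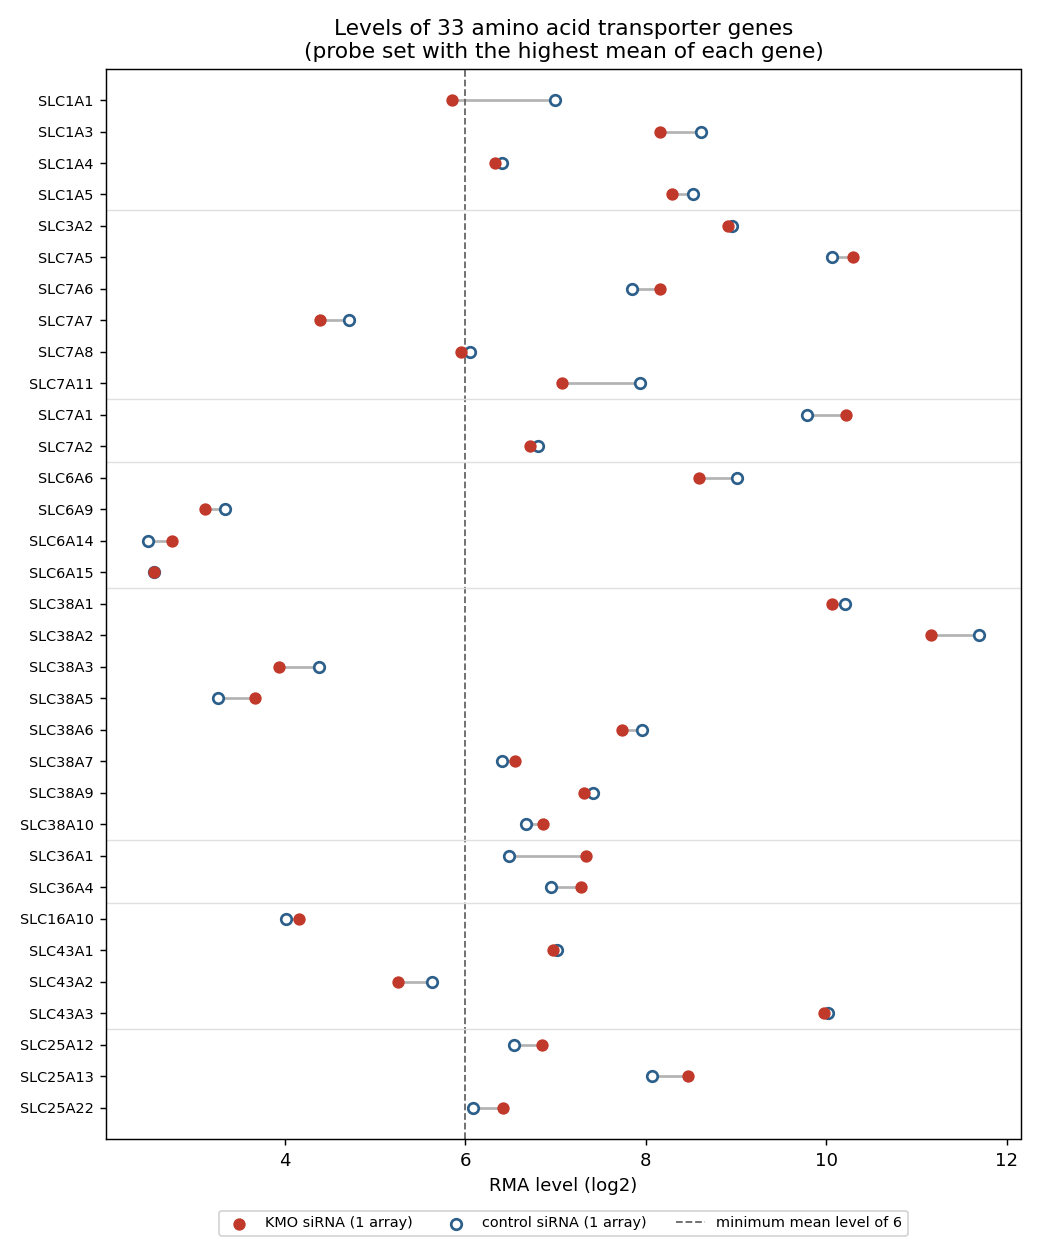
RMA levels (log2, horizontal axis) of the 33 transporter genes, each read from its probe set of highest mean, with KMO siRNA (filled red) and control siRNA (open blue), 1 array each; pale lines separate the roles and the dashed line marks the minimum mean level of 6. SLC1A1 and SLC7A11 lie clearly left of their control value and SLC36A1 clearly right of it, while SLC3A2, SLC43A1 and SLC43A3 hardly separate.

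The 4 members of the SLC1 family described here were all lower with KMO siRNA, as were 3967 of 8997 measured genes. SLC1A1, which takes up glutamate, aspartate and cysteine, stood at 5.86 with KMO siRNA and 6.99 with control siRNA. Since the KMO siRNA level lay under 6, SLC1A1 was at least 1.99-fold lower with this probe set. By the deposited value of -1.14, 77 of 8997 measured genes (0.856%) differed downward at least as far. Among the 1931 measured genes with a mean level within 0.5 of that of SLC1A1, 31 (1.61%) did. The other probe set of SLC1A1, with a mean under the minimum, stood at 5.33 with KMO siRNA and 6.16 with control siRNA. Its difference was -0.82, in the same direction, but with the level under 6 taken as 6 it was only at least 1.11-fold lower. SLC1A3, the glutamate and aspartate carrier best known from glial cells, stood at 8.16 with KMO siRNA and 8.61 with control siRNA. It was 1.37-fold lower with that probe set and differed by only -0.09 with the other measured one, so its size depends on the probe set.

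The remaining members of this family carry neutral amino acids and differed less. SLC1A5 (also ASCT2), the main glutamine exchanger of many tumour cells, stood at 8.29 with KMO siRNA and 8.52 with control siRNA, a difference of -0.23. SLC1A4 (ASCT1), which exchanges alanine, serine and cysteine, differed by -0.08 and -0.23 with its 2 measured probe sets, and its 3 weak probe sets ran from -0.40 to 0.19. The median of the 4 measured SLC1 genes was -0.34.

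SLC3A2 (the heavy chain of CD98), the partner of the SLC7 light chains, hardly differed, whereas its light chains went in both directions. SLC3A2 stood at 8.91 with KMO siRNA and 8.95 with control siRNA, a difference of -0.04 on its single probe set. SLC7A11 (xCT), the cystine and glutamate exchanger, stood at 7.07 with KMO siRNA and 7.93 with control siRNA, and was 1.81-fold lower. Its second measured probe set stood at 6.60 with KMO siRNA and 7.63 with control siRNA, and was 2.04-fold lower. Its weak probe set (4.42 with KMO siRNA and 4.72 with control siRNA) also lay lower, by 0.30. A downward difference at least as large as that of the first probe set was seen in 192 of 8997 measured genes (2.13%), and in 57 of the 2433 whose mean level was within 0.5 of that of SLC7A11. The difference of SLC7A11 minus that of SLC3A2 was -0.82.

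The light chains for large neutral and cationic amino acids went the other way or did not move. SLC7A5 (LAT1), which imports leucine, tryptophan and other large neutral amino acids, stood at 10.30 with KMO siRNA and 10.06 with control siRNA, a difference of 0.24 (1.18-fold). SLC7A6, an exchanger of cationic for neutral amino acids, stood at 8.15 with KMO siRNA and 7.85 with control siRNA, 1.24-fold higher. The other 2 probe sets of SLC7A6 were higher by 0.51 and by at least 0.35, the last with a control level of 5.88, under 6. SLC7A8 (LAT2), a relative of SLC7A5, was at the minimum level (5.95 with KMO siRNA and 6.05 with control siRNA). With the level under 6 taken as 6 it differed by only -0.05, and its weak probe sets ran from -0.20 to 0.03. SLC7A7, which works like SLC7A6 and is best known from gut, kidney and macrophages, lay under the minimum on both arrays (4.39 with KMO siRNA and 4.71 with control siRNA).

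Among the carriers of arginine and lysine that need no heavy chain, SLC7A1 was higher and SLC7A2 differed little. SLC7A1 (CAT1) stood at 10.22 with KMO siRNA and 9.78 with control siRNA, 1.35-fold higher. Its second measured probe set, at 7.26 with KMO siRNA and 6.63 with control siRNA, was 1.55-fold higher. All 5 probe sets of SLC7A1 were higher with KMO siRNA, 3 of them from weak levels. SLC7A2, a relative with several splice forms, stood at 6.72 with KMO siRNA and 6.80 with control siRNA.

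**Figure D2:**
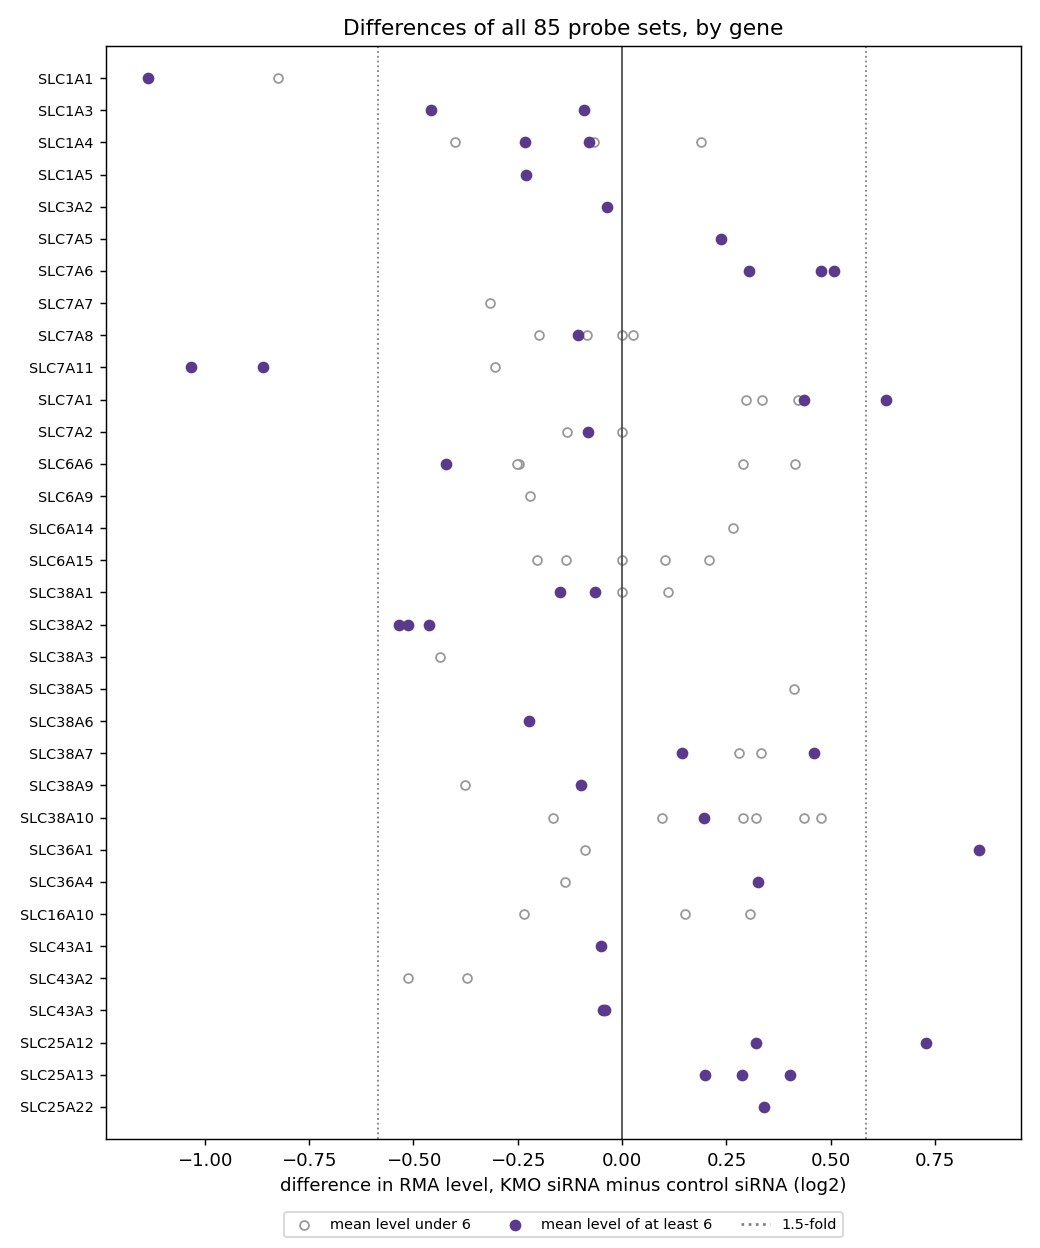
Difference in RMA level (log2, KMO siRNA minus control siRNA, horizontal axis) of each of the 85 probe sets, by gene; filled points have a mean level of at least 6, open points lie under it, and dotted lines mark 1.5-fold. The 3 probe sets of SLC38A2 lie together on the lower side and the 5 of SLC7A1 on the higher side, while the weak probe set of SLC36A1 (-0.09) lies apart from its measured one (0.86).

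Several probe sets on a single transcript check how it was measured and stand for no further culture. Of the 11 transporters with 2 or more measured probe sets, all 11 had these probe sets in one direction, as had 2741 of 3777 such genes of the array (72.6%). Across those 3777 genes the differences of the first and second probe set lay a median of 0.10 apart, and 10% lay more than 0.35 apart. The other 14 measured transporters rest on 1 measured probe set. By single probe sets, 3 of 39 were higher by 1.5-fold (7.69%, beside 5.20% of the measured probe sets of the array) and 3 of 39 lower (7.69%, beside 5.04%). The 3 higher were of SLC36A1, SLC7A1 and SLC25A12, and the 3 lower were 1 of SLC1A1 and 2 of SLC7A11.

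The SLC38 family of sodium-coupled neutral amino acid carriers was led by a lower level of SLC38A2. SLC38A2 (SNAT2), the carrier of alanine, serine and glutamine that cells make when amino acids are scarce, stood at 11.16 with KMO siRNA and 11.69 with control siRNA. Its 3 probe sets differed by -0.53, -0.51 and -0.46, so the gene was 1.38- to 1.45-fold lower, short of 1.5-fold. Of the 306 genes with a mean level within 0.5 of it, 14 (4.58%) were lower by at least as much. Of all 8997 measured genes, 564 (6.27%) were. All 3 probe sets of SLC38A2 have names ending in _x_at or _s_at, which mark probes that can match other transcripts, so none is left without them.

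SLC38A1 (SNAT1), which carries glutamine and lies next to SLC38A2 on chromosome 12, stood at 10.06 with KMO siRNA and 10.21 with control siRNA. Its difference was -0.15 (-0.06 with the second measured probe set), and the difference of SLC38A2 minus that of SLC38A1 was -0.39. SLC38A7, which exports glutamine from lysosomes, was higher by 0.14 and, with its second measured probe set, by at least 0.31, and both of its weak probe sets were higher too. SLC38A9, the lysosomal sensor that reports arginine to the growth kinase complex mTORC1, stood at 7.31 with KMO siRNA and 7.41 with control siRNA. SLC38A10 differed by 0.20 (6.86 with KMO siRNA and 6.67 with control siRNA), and SLC38A6 by -0.22 (7.74 and 7.96 in the same order). SLC38A3 and SLC38A5, carriers of glutamine and histidine, lay under 4.5 on both arrays.

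Both proton-coupled carriers of the SLC36 family described here were higher. SLC36A1 (PAT1), which moves small neutral amino acids such as glycine, alanine and proline out of lysosomes and across the plasma membrane, stood at 7.33 with KMO siRNA and 6.48 with control siRNA, 1.81-fold higher. An upward difference at least as large was seen in 137 of 8997 measured genes (1.52%). Among the 2278 with a mean level within 0.5 of that of SLC36A1, 50 (2.19%) had one. Its other probe set lay under the minimum and did not show it (4.30 with KMO siRNA and 4.39 with control siRNA), so the value rests on 1 probe set. SLC36A4, a carrier of proline and tryptophan, stood at 7.28 with KMO siRNA and 6.95 with control siRNA, 1.25-fold higher, and its weak probe set differed by -0.14.

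The 3 mitochondrial carriers among the 33 genes were all higher, each by less than 1.5-fold with the probe set of the highest level. SLC25A12 and SLC25A13 (aralar and citrin) exchange aspartate for glutamate across the inner mitochondrial membrane as part of the malate-aspartate shuttle. SLC25A12 stood at 6.85 with KMO siRNA and 6.53 with control siRNA, a difference of 0.32, and its second measured probe set was higher by at least 0.71 (6.71 with KMO siRNA and 5.98 with control siRNA). SLC25A13 stood at 8.47 with KMO siRNA and 8.07 with control siRNA, and its 3 probe sets were higher by 0.40, 0.29 and 0.20. SLC25A22, which brings glutamate into mitochondria together with a proton, stood at 6.42 with KMO siRNA and 6.08 with control siRNA, a difference of 0.34. Upward differences of 0.34 or more were not rare here: 1517 of 8997 measured genes (16.9%) had one.

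Of the sodium- and chloride-coupled SLC6 carriers 1 was measured. SLC6A6, the taurine carrier, stood at 8.59 with KMO siRNA and 9.01 with control siRNA, 1.34-fold lower, while its 4 weak probe sets ran from -0.25 to 0.41. SLC6A9, a glycine carrier, SLC6A14, which takes up both neutral and cationic amino acids, and SLC6A15, a carrier of neutral amino acids, all lay under 3.5 on both arrays. The facilitative carriers hardly differed. SLC43A1 (LAT3), for large neutral amino acids, stood at 6.97 with KMO siRNA and 7.02 with control siRNA. SLC43A3, whose known substrates are purine nucleobases and not amino acids, stood at 9.97 with KMO siRNA and 10.02 with control siRNA, and its 2 probe sets differed by -0.04 and -0.05. SLC43A2 (LAT4) was under the minimum with both probe sets, which differed by -0.37 and -0.51, and SLC16A10, an exporter of aromatic amino acids, had 3 probe sets under 4.5.

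**Figure D3:**
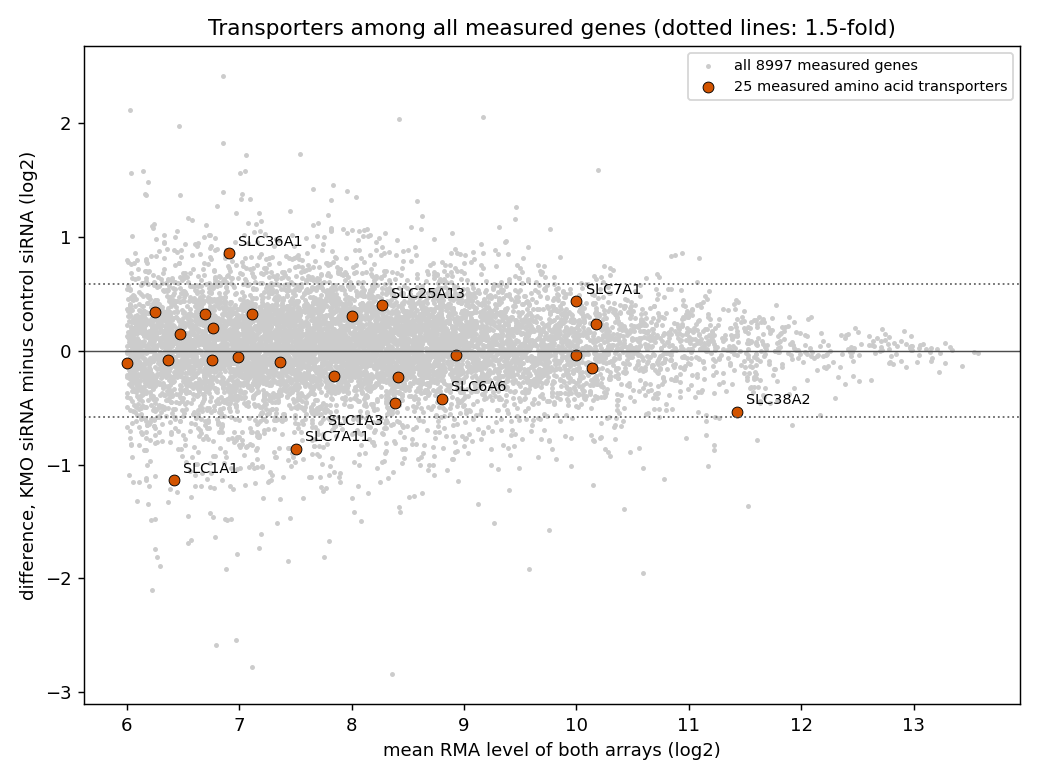
Difference (log2, KMO siRNA minus control siRNA, vertical axis) against mean RMA level of both arrays (log2, horizontal axis) for the 25 measured transporters (orange) and all 8997 measured genes (grey); dotted lines mark 1.5-fold and transporters past 0.4 in either direction are named. SLC36A1 lies above the upper line, SLC1A1 and SLC7A11 below the lower one, and the other 22 lie between the lines.

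Promoter sequences were read for SLC1A1 and SLC36A1, both past 1.5-fold, from a table of RefSeq promoters (that of SLC7A11 was not analysed here), and for 3 others, of which SLC1A3 and SLC7A1 hold the letters of an ATF4 element and differed in opposite directions, and SLC25A13 had all probe sets higher. Each window runs from 250 bases before to 50 bases after a transcription start, on GRCh38.p14, 5′ to 3′ on the strand of the gene. Capitals mark matches, on either strand, to TGATGNAAN (the composite element bound by ATF4 with C/EBP proteins), TGACNNNGC (the core of the antioxidant element bound by NRF2) or CACGTG (the E-box bound by MYC, TFEB and related factors). The windows are chr9:4490218-4490517 on the plus strand for SLC1A1, chr5:151447353-151447652 on the plus strand for SLC36A1 (1 of 2 windows), chr5:36596338-36596637 on the plus strand for SLC1A3 (1 of 3), chr13:29595639-29595938 on the minus strand for SLC7A1, and chr7:96322049-96322348 on the minus strand for SLC25A13.
SLC1A1: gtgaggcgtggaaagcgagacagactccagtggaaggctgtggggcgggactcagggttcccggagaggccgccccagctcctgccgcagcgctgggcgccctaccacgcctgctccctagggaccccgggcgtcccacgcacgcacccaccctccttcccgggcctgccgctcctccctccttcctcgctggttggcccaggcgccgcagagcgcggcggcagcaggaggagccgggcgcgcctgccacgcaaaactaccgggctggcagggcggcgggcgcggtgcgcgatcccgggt
SLC36A1: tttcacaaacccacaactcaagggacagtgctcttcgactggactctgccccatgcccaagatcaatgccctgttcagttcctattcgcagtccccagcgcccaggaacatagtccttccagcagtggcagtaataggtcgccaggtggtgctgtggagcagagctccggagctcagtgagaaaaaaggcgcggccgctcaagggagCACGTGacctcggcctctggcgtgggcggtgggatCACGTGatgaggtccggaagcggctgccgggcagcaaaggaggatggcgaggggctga
SLC1A3: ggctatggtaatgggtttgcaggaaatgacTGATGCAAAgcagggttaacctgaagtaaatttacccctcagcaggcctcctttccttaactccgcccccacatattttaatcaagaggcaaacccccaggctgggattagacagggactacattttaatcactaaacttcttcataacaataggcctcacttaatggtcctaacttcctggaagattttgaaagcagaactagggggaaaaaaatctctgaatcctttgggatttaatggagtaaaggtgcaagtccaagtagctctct
SLC7A1: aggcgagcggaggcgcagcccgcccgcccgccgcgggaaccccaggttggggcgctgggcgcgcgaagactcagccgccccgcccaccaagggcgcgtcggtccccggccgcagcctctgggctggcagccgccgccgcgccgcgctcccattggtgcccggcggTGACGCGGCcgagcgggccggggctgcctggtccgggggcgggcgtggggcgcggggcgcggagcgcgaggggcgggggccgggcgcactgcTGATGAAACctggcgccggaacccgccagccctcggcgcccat
SLC25A13: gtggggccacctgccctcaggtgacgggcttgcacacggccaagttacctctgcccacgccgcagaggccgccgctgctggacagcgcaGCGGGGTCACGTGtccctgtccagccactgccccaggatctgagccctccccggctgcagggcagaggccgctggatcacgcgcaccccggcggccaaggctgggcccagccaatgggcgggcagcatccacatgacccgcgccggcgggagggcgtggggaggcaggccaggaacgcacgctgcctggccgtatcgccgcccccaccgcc

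Where a gene had several windows, the window with the most matches was printed, so its matches do not stand for the other windows. The SLC1A1 window held no match to the 3 motifs. The SLC36A1 window held CACGTG at positions -43 and -8, counted from the start as 0 to the first base of the match. The SLC1A3 window held TGATGCAAA at position -220, and another window of SLC1A3, not printed, held a match to TGACNNNGC. In SLC7A1, TGATGAAAC began at position 7 and TGACGCGGC at position -85. In SLC25A13 a match to the antioxidant core on the other strand, printed as GCGGGGTCA, shared its last bases with CACGTG.

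Over all transporters, 27 of the 33 genes had 51 windows in the table. TGATGNAAN was found in 6 of these windows (11.8%), beside 3.61% of all 35116 windows, in SLC1A3, SLC1A4, SLC1A5, SLC3A2, SLC7A1 and SLC38A1. Of these 6 genes, 1 was higher and 5 lower with KMO siRNA, with a median difference of -0.11. TGACNNNGC was found in 9 windows (17.6%, beside 13.3% of all windows), and the 8 measured transporters with it, 5 higher and 3 lower, had a median difference of 0.27. CACGTG was found in 10 windows (19.6%, beside 7.26%), and the 8 measured transporters with it, 5 higher and 3 lower, had a median difference of 0.19. Over all measured genes 54.8% were higher. These are matches of letters in a short window, and elements outside it were not searched.

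The genes of the amino acid response, through which GCN2 and ATF4 answer amino acid shortage, were given beside the carriers because several carriers are known targets. These genes were already known to be lower in these arrays when the list was drawn up, so their count is a description. Of 12 genes, all measured, 11 were lower with KMO siRNA, 9 by at least 1.5-fold (75%, beside 5.41% of all measured genes) and 4 by at least 2-fold (33.3%, beside 1.39%), with a median of -0.87. DDIT4, an inhibitor of mTORC1, differed by -1.96, the transcription factor ATF3 by -1.48, the glutathione-degrading enzyme CHAC1 by -1.46 and the transcription factor DDIT3 (CHOP) by -1.10. The pseudokinase TRIB3 differed by -0.98, asparagine synthetase (ASNS) by -0.90, the lipoprotein receptor VLDLR by -0.84, the stress protein SESN2 by -0.77 and the transcription factor CEBPB by -0.60. ATF4 itself stood at 10.79 with KMO siRNA and 11.06 with control siRNA, and the kinase EIF2AK4 (GCN2) differed by 0.15.

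Some carriers are known as targets of ATF4, and those given here were picked after their values were seen, so no count is drawn from them. SLC7A11 differed by -0.86, SLC38A2 by -0.53, SLC1A5 by -0.23, SLC1A4 by -0.08 and SLC3A2 by -0.04, while SLC7A5 and SLC7A1 differed by 0.24 and 0.43.

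Genes that use or make amino acids inside the cell, called amino acid use genes here, differed little. Their division from the response genes was a choice made with earlier results of these data known. The medians of both lists are therefore no test of a contrast. The list held 20 genes, of which 18 were on the array by the annotation used and 16 were measured, 9 higher and 7 lower, with a median of 0.03 and 0 past 1.5-fold. The largest differences were those of PSPH, the last enzyme of serine synthesis (-0.52), ODC1, which starts polyamine synthesis from ornithine (0.42), and ALDH18A1, which starts proline synthesis from glutamate (0.39). GCLC and GCLM, the subunits of the enzyme that joins glutamate to cysteine on the way to glutathione, differed by -0.01 and 0.05, beside the lower SLC7A11. ARG2, an arginase, stood at 5.09 with KMO siRNA and 6.44 with control siRNA, with a mean under the minimum.

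The other amino acid carriers of the array were mostly under the minimum. Of 31 listed, 28 were found by that annotation and 7 were measured, with a median of 0.11 and 0 past 1.5-fold. SLC25A29, a mitochondrial carrier of basic amino acids, differed by -0.33, SLC17A5, a lysosomal carrier of sialic acid and acidic amino acids, by 0.27, and SLC25A44, a mitochondrial carrier of branched-chain amino acids, by 0.23. Over all other solute carriers, 141 of 343 were measured, with 6 higher (4.26%) and 7 lower (4.96%) by at least 1.5-fold and a median of 0.06. The 6 higher were the organic cation carrier SLC22A4 (0.94), the zinc carrier family member SLC30A6 (0.92), the mitochondrial folate carrier SLC25A32 (0.85), the mitochondrial pyrimidine nucleotide carrier SLC25A33 (0.66), the ADP/ATP carrier SLC25A4 (0.63) and the fatty acid transport protein SLC27A4 (0.60). The 7 lower were SLC12A8 (-1.19), the glucose carrier SLC2A3 (-1.07), SLC26A11 (-0.88), SLC67A1 (-0.71), SLC18B1 (lower by at least 0.44, with a KMO siRNA level of 5.77), and SLC75A1 and the bicarbonate carrier SLC4A7 (both -0.61).

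**Figure D4:**
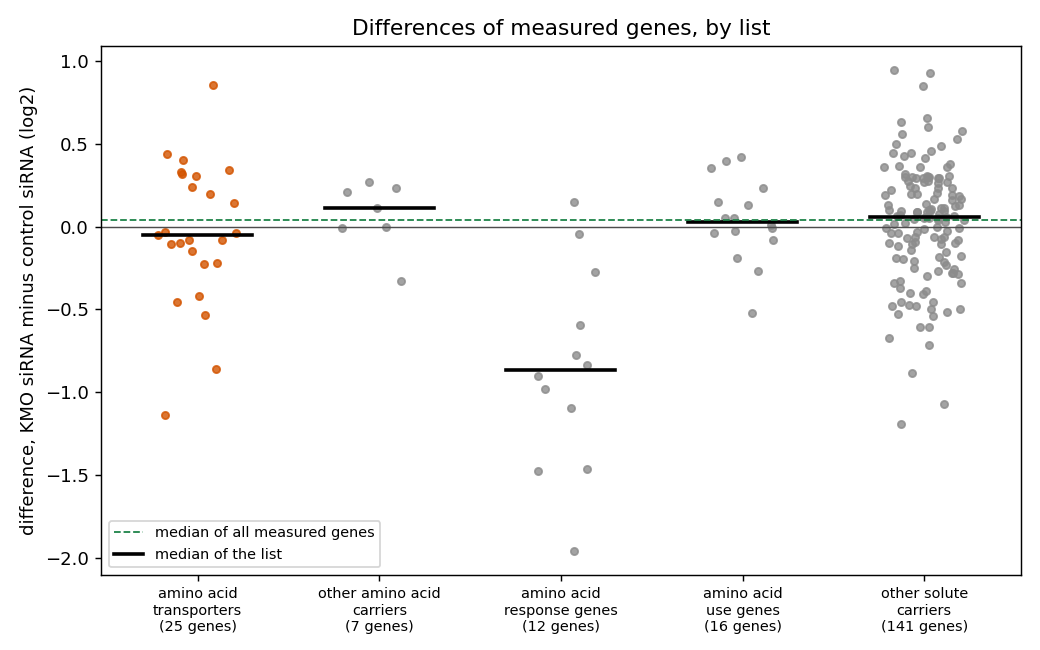
Differences (log2, KMO siRNA minus control siRNA, vertical axis) of the measured genes of 5 lists, 1 point per gene, with the median of each list as a black bar and that of all measured genes as a dashed line. The 25 transporters spread around 0 with a median of -0.05. The 12 amino acid response genes, already known to be lower in these arrays when listed, have a median of -0.87.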

How the data were processed

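RNA of 1 culture per condition was hybridised to an Affymetrix U133 Plus 2.0 array. The deposited values are log2 levels that the authors made with RMA, per the labels; Affymetrix Expression Console was used, per the submitters' processing notes. Its version, and whether further arrays were normalized with these, is not given in the sources used here. RMA fits both arrays to one distribution (sorted values lay at most 0.064 apart), so a shift of all transcripts cannot be seen. From these values, differences and counts were computed with Python 3.11.15 and pandas 2.3.3. The calling step was tested on simulated data with differences larger than 2-fold, which checks the code and not the calls at 1.5-fold.

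Probe sets were named by GEO's platform annotation, with symbols updated by gene identifier through RefSeq (GRCh38.p14), used for names, neighbours and promoter windows: 41091 carried 1 gene, of which 41037 matched, 1801 carried several genes and were not used, and 11783 were unlisted or controls. A level under 6 was taken as 6 for folds written "at least". All transporters are named; of other lists, those past 1.5-fold and up to 3 others with the largest differences, and genes named beyond that (such as GCLC, ATF4, ARG2 and the epithelial genes) were chosen after their values were seen. Members and lists were chosen with earlier results of these data known. Alternatives were another summary of probe sets, other minimum levels, levels under 6 taken as 6, and centring.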

Additional observations from a re-analysis of the deposited data

How the results depend on the processing

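No paired analysis was possible because each condition has 1 array, and for the same reason no array could be left out; the number of arrays limits the precision, and signal near background limits the weak genes. No measured transporter had another direction under any of the 7 alternatives, among those still measured (15 at a minimum of 7, 17 with the mean of all probe sets, 18 without the _x_at and _s_at probe sets). Most of these could not change a direction. The other minimum levels keep the same probe set, and taking levels under 6 as 6 can only shrink a difference. Only the mean of all probe sets, leaving out the _x_at and _s_at probe sets, and centring could have done so. The count of transporters higher by 1.5-fold, 1 as reported, was 0 with the mean of all probe sets (SLC36A1 then lies under the minimum), 3 without _x_at and _s_at probe sets (SLC25A12 at 0.73 and SLC7A1 at 0.63 were added) and 0 at a minimum of 7. The count lower by 1.5-fold, 2 as reported, was 1 at a minimum of 7, and that lower by 2-fold, 1 as reported, was 0 with the mean of all probe sets, at a minimum of 7, and with levels under 6 taken as 6. The median moved by less than 0.1 under each.

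For the other lists, amino acid response genes lower by 1.5-fold, 9 as reported, were 5 without _x_at and _s_at probe sets, where those lower by 2-fold were 2 and the median was -0.76; those lower by 2-fold were also 2 at a minimum of 7. Other amino acid carriers, 0 past either fold as reported, had 1 higher and 2 lower by 1.5-fold and 1 lower by 2-fold with no minimum (median -0.031), and 1 higher, 1 lower and 1 lower by 2-fold at a minimum of 5. Amino acid use genes, 0 as reported, had 1 lower by 1.5-fold and by 2-fold (ARG2) with no minimum and at a minimum of 5. Other solute carriers lower by 1.5-fold, 7 as reported, were 13 with no minimum, and those lower by 2-fold, 2 as reported, were 5 with no minimum, 1 at a minimum of 7 and 1 without _x_at and _s_at probe sets.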
